A study of Mus musculus with 2 samples.

Results

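Fine cluster 2 is a group of CD8 T cells from the inflamed mouse colon. Its mean levels of the residency integrin gene Itgae, of Apol7b and of Gpr34 were above those of the other cells. Its members were the cells with the value 2 among the 12 fine cluster numbers of the authors' annotation, 1148 of 8562 cells (13.4%). The cells came from the lamina propria of Rag1 KO hosts, which lack their own T and B cells, in the T cell transfer model of colitis. Every host had received wildtype naive CD4 T cells from spleen together with splenic CD8 T cells of the genotype Bcl6fl/fl Cd8aCre or Bcl6fl/fl. The mice were 8 to 12 weeks old when transfer began, and the colon was taken 6 to 10 weeks after it. Cre is driven by Cd8a regulatory sequence, so that both kinds of donor cell carry the floxed Bcl6 alleles and one kind also makes Cre. The annotation names the groups Crep and Cren; they were read as Bcl6fl/fl Cd8aCre and Bcl6fl/fl, a reading that no source spells out. Each group had 4 hashtags, antibody barcodes that mark a source of cells within 1 pooled 10x 5′ v2 library. Whether every hashtag stood for its own mouse is not given in the sources used here, and p-values therefore cover only the variation among hashtags.

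Tissue-resident memory CD8 T cells stay in a barrier tissue instead of recirculating through blood and lymph. Itgae encodes the alpha chain of CD103, an integrin that binds E-cadherin on epithelial cells and is induced by TGF-beta. Resident cells keep the egress receptor gene S1pr1 and its activator Klf2 low. BCL6 is a transcriptional repressor of lymphocytes that opposes effector differentiation of CD8 T cells and binds sites of the type also used by STAT factors.

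The cluster held 370 Crep cells and 778 Cren cells, with 3429133 UMIs (unique molecules counted) in all. Its cells had a median of 2793 UMIs and 1294 genes, against 2759 UMIs and 1256 genes in the other 7414 cells. Single hashtags held 25 to 138 Crep cells and 97 to 347 Cren cells of the cluster. Crep 4 was the thinnest, with 68561 UMIs in its 25 cells, and 63.1% of all its cells were in coarse cluster 4 of the annotation. No cell barcode occurred more than once, 11 cells of the cluster were not given their hashtag by both classifiers, and 7 had been called as 2 hashtags by a classifier. Within the cluster, median UMIs, genes, mitochondrial share and ribosomal share per cell did not pass between the groups in exact permutation tests adjusted over the 4 measures; with 4 hashtags against 4, no measure that separated alone could have passed, so equal quality is not shown. The median mitochondrial share came nearest, at 0.61, 0.65, 0.6 and 0.7% in Crep hashtags against 0.76, 0.75, 0.69 and 0.83% in Cren hashtags (exact two-sided p = 0.0571, adjusted p = 0.229); Crep 4 overlapped with Cren 3.

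The label was checked against its markers. All 3 were higher than in other cells: Itgae had 316 ± 61.7 CPM (UMIs per 1000000 UMIs) in the cluster and 100.3 ± 58.1 CPM in other cells, Apol7b, of the apolipoprotein L family, 101 ± 44.3 and 17.7 ± 18.2 CPM, and Gpr34, a lysophosphatidylserine receptor gene, 69.1 ± 19.9 and 20.6 ± 9.99 CPM (SD over 8 hashtags). In the cluster, 486 cells had a UMI of 1 marker, 219 of 2 and 39 of all 3 markers. The remaining 404 cells of the cluster (35.2%) had none, against 5995 of the other cells (80.9%).

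The same 3 genes did not set the cluster apart from fine cluster 0. With all cells of a cluster pooled, Itgae stood at 331 CPM in fine cluster 2 and at 355.5 CPM in fine cluster 0. Apol7b stood at 102.9 CPM in fine cluster 2 and 71.5 CPM in fine cluster 0, and Gpr34 at 71.2 and 70.5 CPM in these clusters. Fine clusters 0 and 2 ranked first or second of 12 for each of the 3 genes. The markers thus name a pair of clusters.

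**Figure D1:**
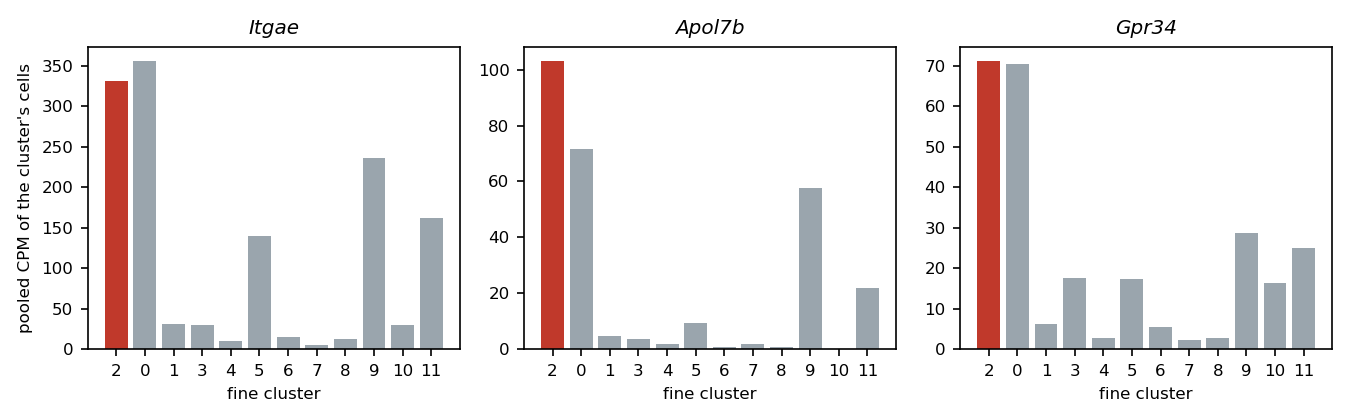
Pooled CPM (linear axis from 0) of the 3 marker genes in each of the 12 fine clusters, with fine cluster 2 in red at the left; there is no error bar because each bar pools all cells of a cluster. Fine clusters 2 and 0 held the highest bars for all 3 genes, with Itgae at 331 and 355.5 CPM.

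Genes that define CD8 alpha beta T cells were present: Cd8a had 1313 ± 116 CPM in the cluster and 829.7 ± 149 CPM in other cells, and Cd8b1 764 ± 152 and 1008 ± 197 CPM (SD, n = 8 hashtags). Of the 6 tissue-resident markers, Itgae, Cd69, Itga1, Cxcr6, Rgs1 and Zfp683 all had positive mean log2 ratios, from 0.48 for Cxcr6 to 1.83 for Itgae. Some defining markers of other lineages were at or near 0 and others were not. Foxp3, the regulatory T cell factor, had 4 UMIs in the cluster, Trdc, the constant gene of the gamma-delta receptor, 2, and S100a8 3, while Igkc and Klrb1b had 0. Of the 5 gamma-delta markers, 4 were over 1.5-fold higher than in other cells, all from the gamma receptor locus. Tcrg-C1 had 29.8 CPM in the cluster and 6.23 CPM in other cells, Tcrg-C2 99.4 and 54.3 CPM, and Tcrg-C4 59.8 and 27.9 CPM. Trgv2 had a UMI in 66.3% of cells of the cluster and in 48.2% of other cells. The myeloid list of 10 genes summed to 156 to 449 CPM in Crep hashtags and 276 to 356 CPM in Cren hashtags of the cluster, and its largest members were Cd74 at 146 CPM and Lyz2 at 61.9 CPM, against 104 and 60.01 CPM in other cells. The list of CD4 and regulatory T cell markers summed to 34.6 to 58.3 CPM in Crep hashtags and 44.6 to 103 CPM in Cren hashtags. In that list Cd40lg, the CD40 ligand gene, had 11.3 CPM in the cluster and 2.82 CPM in other cells, and Ikzf2 21.7 and 17.9 CPM. Cdh1, the E-cadherin gene, had 22.2 CPM in the cluster and 10.6 CPM in other cells.

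Against all other cells, the genes with the highest ratios included Apol7b, Ahr, Itgae, Furin and Gpr34, with the costimulatory gene Icos further down. The comparison is a description without a test, because the clusters were built from these genes. It used the log2 ratio of (CPM + 5) within each hashtag. Of 4003 genes with a UMI in at least 10% of the cluster's or of the other cells, 355 (8.87%) were higher and 278 (6.94%) lower in 8 of 8 hashtags. Of the 4003, 29 (0.724%) were at least 2-fold higher in the mean with the same sign in 8 of 8 hashtags, and 50 (1.25%) were at least 2-fold lower. The uncharacterised gene 1700003C15Rik had the highest mean log2 ratio, 2.34 ± 0.69 (SD, n = 8), with Apol7b at 2.34 ± 1.14. Ahr, the aryl hydrocarbon receptor that intestinal T cells need for their upkeep, followed at 2.13 ± 0.57: it had 122 ± 27.3 CPM in the cluster and 25.2 ± 9.38 CPM in other cells, and no hashtag of the cluster (87.5 to 168 CPM) overlapped with the other cells (6.62 to 37.0 CPM). Itgae had a log2 ratio of 1.83 ± 0.96, and Furin, the convertase that processes the TGF-beta precursor, 1.76 ± 0.41.

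Further leading genes included Trat1, an adaptor of the T cell receptor complex (log2 ratio 1.52), Qpct, a glutaminyl cyclase (1.38), and Ldlrad4, an attenuator of TGF-beta signalling (1.29). The costimulatory receptor gene Icos had 303 ± 67.6 CPM in the cluster and 124 ± 30.6 CPM in other cells, and the inhibitory receptor gene Ctla4 333 ± 65.9 and 150.3 ± 30.0 CPM (SD, n = 8). Nt5e, which encodes the ectonucleotidase CD73, closed the list of 20 at a log2 ratio of 1.12. Neurl3 varied least between hashtags, at 1.15 ± 0.15, and Apol7b most.

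The genes with the lowest ratios included Ly6c2, Klrg1, S1pr1 and Klf2. Ly6c2, which encodes the surface protein Ly6C, had 164 ± 148 CPM in the cluster and 1500.1 ± 767 CPM in other cells, a log2 ratio of -3.30 ± 0.88 (SD, n = 8). Klrg1, a marker of terminal effector cells, had 18.9 ± 9.02 CPM in the cluster and 221 ± 135 CPM in other cells. S1pr1 had 8.18 ± 7.39 and 92.0 ± 32.7 CPM, and Klf2 187 ± 79.6 and 1110.5 ± 369 CPM. For S1pr1 the highest hashtag of the cluster (24.6 CPM) lay below the lowest of the other cells (51.1 CPM). The list went on with Eomes, an effector and memory transcription factor (log2 ratio -2.29), the chemokine receptor gene Ccr2 (-1.93), Rasgrp2, which activates integrins through Rap1 (-1.86), and Itgax, which encodes CD11c (-1.73).

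**Figure D2:**
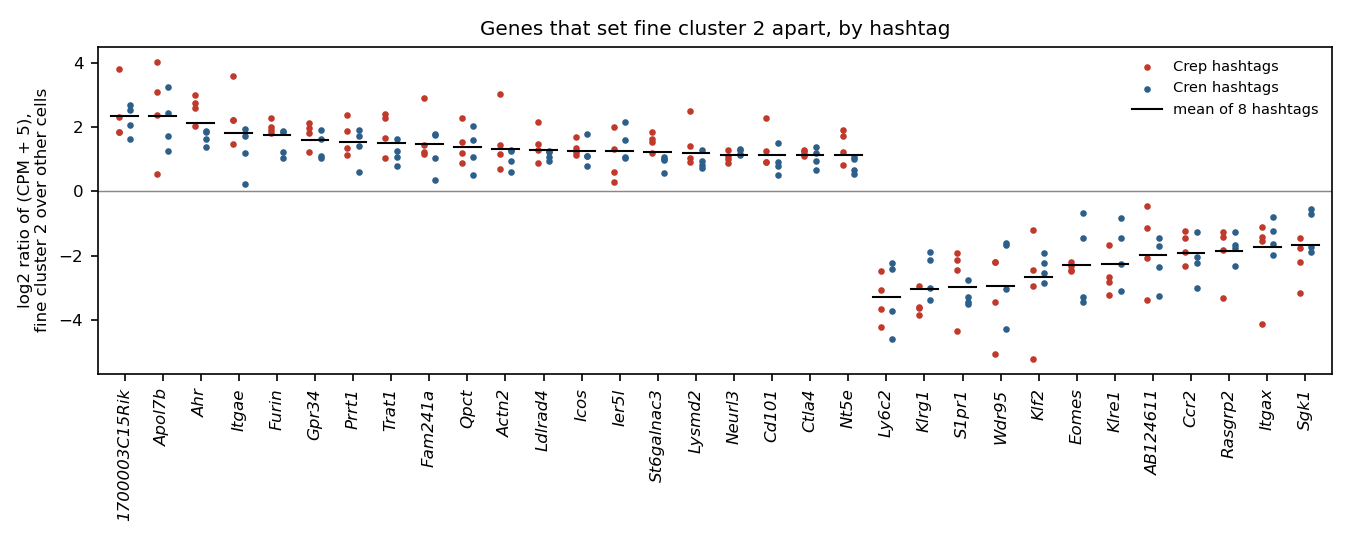
Log2 ratio of (CPM + 5) in fine cluster 2 over all other cells for the 20 highest and 12 lowest genes, each point 1 hashtag (red, Crep; blue, Cren) and each black line the mean of 8. All points of the 20 genes lie above 0 and all points of the 12 below it, which the choice of genes required; Apol7b has its lowest point in Crep 2.

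Lists of known programs were read against the same ratios, with all tested genes as background: 382 of 4995 genes (7.65%) were higher and 258 (5.17%) lower than in other cells in 8 of 8 hashtags. These lists were counted over the genes that passed the count filter within the cluster, 35 of 41 for resident memory. The resident-memory genes left out, Ccr9, Hpgds, Cdh1, Ctnna1, Eya2 and Dusp6, were not higher in every hashtag. The clusters were built from these genes, and the lists were chosen with earlier results of these data known. The counts are therefore a description and no support for the label. Of the resident-memory genes, 26 of 35 were higher in every hashtag and 1, Itgb7, was lower in every hashtag, with a median log2 ratio of 0.69 against 0.00 over all tested genes. Gpr55, a lysophospholipid receptor gene, was at 1.41, Rgs1, which dampens chemokine receptor signals, at 0.81 and Jaml, a junctional adhesion molecule gene, at 0.72. The residency regulators Runx3 (0.00) and Prdm1 (-0.13) were not raised. Of the egress and circulation genes, 8 of 9 were lower in every hashtag, with a median of -0.71; Itgb2, the beta chain of LFA-1, was at -0.37. Of the TGF-beta pathway genes, 8 of 15 were higher in every hashtag and none was lower in every hashtag (median 0.43), among them the receptor gene Tgfbr3 (0.64), the SMAD corepressor Tgif1 (0.71) and the feedback gene Pmepa1 (0.59). Of the cytotoxic genes, 8 of 20 were lower in every hashtag and 1 was higher, with a median of -0.46; Gzmk was at -1.50 and Klrd1 at -0.44.

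The 2 most similar fine clusters over 4995 genes were fine cluster 0 (r = 0.970) and fine cluster 3 (r = 0.969), which share the library and the common T cell genes. Against fine cluster 0, the nearest one, Nr4a1 had the largest log2 difference. Nr4a1, an immediate-early receptor gene induced by T cell receptor signals, had 437 CPM in fine cluster 2 and 68.7 CPM in fine cluster 0. Higher levels were also seen for Csrnp1 (149.9 and 32.9 CPM), for Nfkbia, the inhibitor of NF-kappa-B (638 and 164 CPM), for the cell cycle inhibitor Cdkn1a (59.5 and 11.2 CPM) and for Tgif1 (143 and 32.4 CPM). Lower levels were seen for Ifitm1, an interferon-induced membrane protein gene (83.1 and 450.3 CPM), for Ly6c2 (114 and 456 CPM) and for the granzyme gene Gzma (1239 and 2573 CPM). Against fine cluster 3, Itgae had 331 CPM in fine cluster 2 and 29.7 CPM in fine cluster 3, Ahr 119 and 15.5 CPM, and Ccr2 31.5 and 218 CPM. These are pooled levels, with no test.

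The share of a hashtag's cells in the cluster was 13.5, 12.3, 7.29 and 2.39% in the Crep hashtags, against 14.3, 31.4, 8.86 and 16.4% in the Cren hashtags. The ranges overlapped, and Cren 2 and Crep 4 stood at the extremes. The means were 8.88 ± 5.10% in Crep and 17.7 ± 9.65% in Cren (SD, n = 4 each); the 95% Wilson interval was 1.62 to 3.50% for Crep 4 and 28.7 to 34.2% for Cren 2 and covers counting error only. No test is given, because Ccr2, a gene that helps to define the cluster, differed between the groups. With coarse cluster 4 left out of the denominator, Crep 4 stood at 6.48%. Of the 1148 cells, 988 (86.1%) also belonged to coarse cluster 1 and 151 (13.2%) to coarse cluster 0. The coarse cluster 0 part was larger in every Crep hashtag, at 13.8, 26.9, 32.9 and 32.0% of the cluster's cells, against 4.301, 9.22, 11.3 and 8.78% in the Cren hashtags.

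Bcl6, the targeted gene (chromosome 16, 23965050 to 23988866, GRCm38), was measured first within the cluster. It had 60.3, 45.4, 52.9 and 30.9 CPM in the Crep hashtags, against 28.1, 28.3, 17.2 and 36.8 CPM in the Cren hashtags. The groups overlapped through Crep 4 and Cren 4, the level rested on 54 Crep and 62 Cren UMIs, and the difference did not pass (log2 fold change 0.85, SE 0.28, edgeR adjusted p = 0.326). In all other cells Bcl6 had 27.6 ± 2.36 CPM in Crep, against 15.5 ± 1.90 CPM in Cren (each ± SD, n = 4; log2 fold change 0.84, SE 0.14, adjusted p = 0.00881). UMIs per gene from a 5′ kit do not tell whether the floxed part was deleted, so every direction below is between groups as labelled.

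The comparison of Crep with Cren inside the cluster asked what differed among resident-like cells of the donor genotypes. Of 4995 genes tested, 14 (0.28%) passed at an edgeR adjusted p under 0.05, of which 10 (0.2%) rose and 4 (0.0801%) fell in Crep. At an unadjusted p under 0.05 there were 306. The genes that rose included the cytokine feedback gene Socs2, the chemokine receptor gene Ccr2, the actin capping gene Capg and the granule gene Nkg7. The genes that fell were Cd5, Tgif1, Ndufa4 and Zfp36l1. Over all genes tested, 197 (3.94%) had groups that did not overlap, 97 (1.94%) with every Crep hashtag above and 100 (2%) with every Crep hashtag below; 13 of the 14 were among them, which their choice from these hashtags favours. In sums of cells, a higher share of cells with a transcript and more transcript per cell cannot be told apart.

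The gene with the largest fold was 1500009L16Rik, a protein-coding gene of chromosome 10 (83722693 to 83762762). It had 47.2, 64.0, 44.1 and 30.9 CPM in the Crep hashtags, against 3.51, 4.36, 10.3 and 2.45 CPM in the Cren hashtags. The groups did not overlap, and the counts were small, 54 and 10 UMIs. The lowest Crep hashtag, Crep 4, held 68561 UMIs of all genes in the cluster, so that its level rests on very few UMIs. The Crep 4 levels of Bcl6, Socs2 and Ccr2 likewise rest on very few UMIs. The log2 fold change was 3.39 (SE 0.42, edgeR adjusted p = 1.91e-05).

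Socs2, a STAT5-induced inhibitor of cytokine receptor signalling (chromosome 10, 95383903 to 95417321), had 86.6, 82.7, 66.1 and 30.9 CPM in Crep, against 22.8, 17.4, 27.6 and 12.3 CPM in Cren. The groups did not overlap, with Crep 4 nearest to the Cren hashtags, and the level was 3.91-fold higher in Crep (log2 1.97, SE 0.28, edgeR adjusted p = 0.00018). Cish, a gene of the same family, stood at a log2 difference of 0.60 (adjusted p = 0.256), and Socs3 at -0.63 (adjusted p = 0.579). Socs2 was the member called among the 18 tested genes of cytokine receptors and their feedback, where 10 were positive and 8 negative (median 0.06, against -0.01 over all genes tested).

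Ccr2, the receptor for the monocyte chemokine CCL2 (chromosome 9, 124101918 to 124109140), had 70.8, 50.7, 92.5 and 46.4 CPM in Crep, against 14.04, 15.3, 44.8 and 7.36 CPM in Cren. Cren 3 came within 2 CPM of the lowest Crep hashtag. The level was 3.76-fold higher in Crep (log2 1.91, SE 0.35, edgeR adjusted p = 0.00685), and without Crep 3 the adjusted p was 0.0602. In other cells the 12 chemokine receptor genes tested had a median log2 fold change of -0.20. Within the cluster all 6 tested had positive fold changes, with a median of 0.36, as had 2428 of all 4995 genes tested (median -0.01). Ccr2 was the one called, where 14 of the 4995 (0.28%) were called. The residency receptor gene Cxcr6 was at 0.39 (adjusted p = 0.441).

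Rexo5, an RNA exonuclease gene (chromosome 7, 119794117 to 119880443), had 63.0, 61.4, 48.5 and 61.9 CPM in Crep, against 3.51, 14.2, 20.7 and 14.7 CPM in Cren. The groups lay far apart, at 4.67-fold higher in Crep (log2 2.22, SE 0.34, edgeR adjusted p = 0.000318). Glrx, the glutaredoxin gene of thiol redox control (chromosome 13, 75839885 to 75850151), had 252, 253, 366 and 464 CPM in Crep, against 119, 145, 148 and 147 CPM in Cren. The Cren hashtags were close together and the Crep hashtags spread, and the level was higher in Crep (log2 1.14, SE 0.17, adjusted p = 0.000219).

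Capg, which caps actin filaments (chromosome 6, 72538282 to 72562983), had 278, 526, 445 and 448 CPM in Crep, against 123, 207, 210.3 and 155 CPM in Cren (log2 1.27, SE 0.21, edgeR adjusted p = 0.0121). Crep 1 was the lowest of its group and still above every Cren hashtag. Pik3r5, the p101 regulatory subunit of PI3-kinase gamma, had 108 ± 29.6 CPM in Crep, against 47.8 ± 18.5 CPM in Cren (each ± SD, n = 4; log2 1.26, adjusted p = 0.0184). Hist1h1c, a linker histone gene, had 119 ± 13.8 CPM in Crep, against 61.8 ± 13.0 CPM in Cren (log2 0.95, adjusted p = 0.0195). Fgl2, which encodes an immunoregulatory fibrinogen-like protein, had 241 ± 42.9 CPM in Crep, against 154 ± 17.8 CPM in Cren (log2 0.71, adjusted p = 0.0211), and Nkg7, a membrane protein gene of cytotoxic granules, 2772 ± 263 CPM in Crep, against 1948 ± 263 CPM in Cren (log2 0.52, adjusted p = 0.0211). None of these 5 genes had overlapping groups.

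The 4 genes that fell had roles in receptor tuning, RNA decay, TGF-beta signalling and respiration. Cd5, an inhibitory coreceptor whose level follows the strength of T cell receptor signals (chromosome 19, 10718107 to 10739026), had 83.9, 96.0, 70.5 and 61.9 CPM in Crep, against 174, 215, 110.3 and 130.1 CPM in Cren. The groups did not overlap, and the log2 fold change was -0.98 (SE 0.21, edgeR adjusted p = 0.0211). Tgif1 (chromosome 17, 70844205 to 70853532) had 81.3, 104, 88.1 and 139 CPM in Crep, against 190, 195, 124 and 169 CPM in Cren. This was the called gene whose groups overlapped, Crep 4 lying above Cren 3 (log2 -0.86, SE 0.19, adjusted p = 0.0241). Zfp36l1, an RNA-binding protein that speeds mRNA decay, had 368 ± 51.9 CPM in Crep, against 591 ± 50.5 CPM in Cren (each ± SD, n = 4; log2 -0.63, adjusted p = 0.0121). Ndufa4, a subunit of cytochrome c oxidase, had 232 ± 19.7 CPM in Crep, against 358 ± 13.2 CPM in Cren (log2 -0.64, adjusted p = 0.0190).

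**Figure D3:**
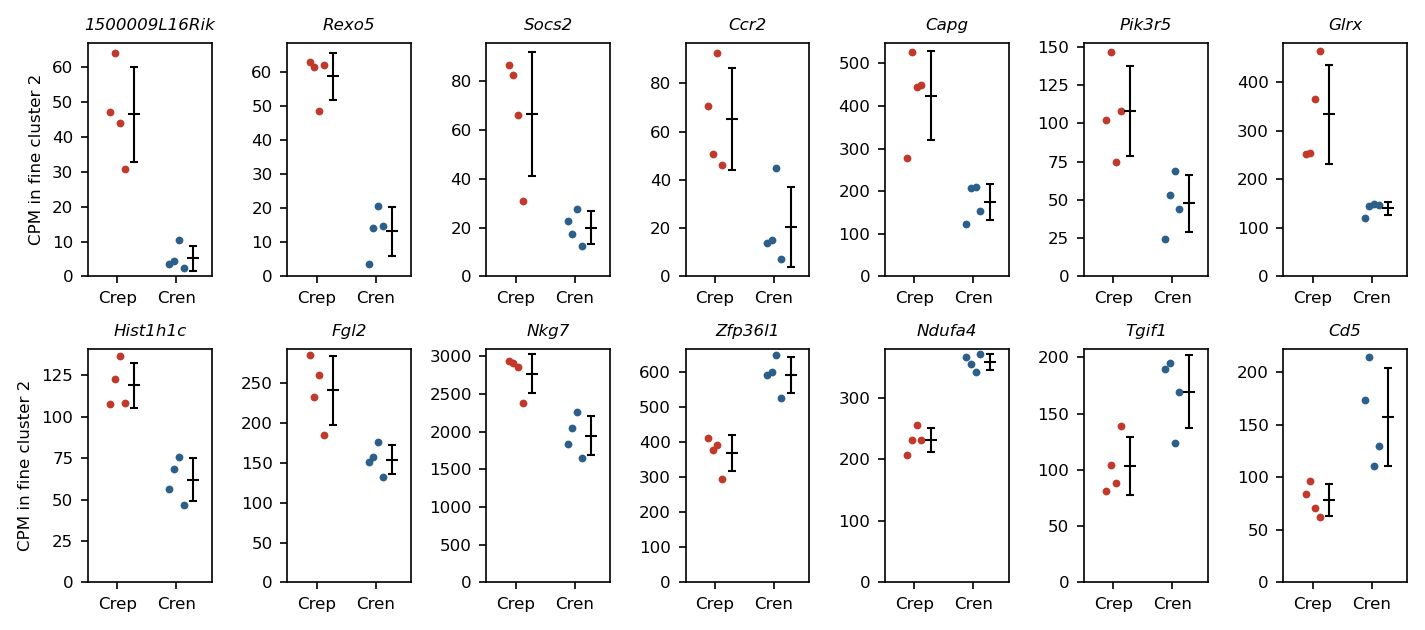
CPM (linear axes from 0) of the 14 genes called within fine cluster 2, with 4 Crep hashtags in red at the left and 4 Cren hashtags in blue at the right of each panel; black marks show mean ± SD. The groups do not overlap in 13 panels, and in the Tgif1 panel Crep 4 at 139 CPM lies above Cren 3 at 124 CPM.

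The calls stood up to other settings to different degrees. Ccr2 and Zfp36l1 passed in 7 of 8 omissions of a hashtag, Capg, Pik3r5 and Ndufa4 in 5, and Hist1h1c and Nkg7 in 4. Cd5 and Fgl2 passed in 3 and Tgif1 in 2 of the 8. With DESeq2, Cd5, Fgl2, Tgif1, Ndufa4 and Hist1h1c did not pass, and with limma-voom Cd5 and Tgif1 did not. 1500009L16Rik, Socs2, Glrx and Rexo5 passed under every alternative that tested them and without any single hashtag. Of these, Glrx was tested in 17 alternatives, Socs2 and Rexo5 in 16 and 1500009L16Rik in 14. With each cell thinned to 1500 UMIs, which left 2960 genes for testing, 4 genes passed. All 4 were higher in Crep, Glrx, Capg and Nkg7 among them, and no gene that fell passed. Among cells that also belonged to coarse cluster 1, where the groups cannot differ in the coarse cluster 0 part, 15 genes passed, without Cd5 and Fgl2. The summed level of the 6 cytotoxic marker genes moved with the groups, at 3151 to 6019 CPM in Crep hashtags and 903 to 2556 CPM in Cren hashtags of the cluster, and none of the 6 was at 0. The largest members of that sum were Gzmb at 1660 CPM and Gzma at 1215 CPM. Prf1, Klrg1, Cx3cr1 and Zeb2 were each at 44.7 CPM or lower, and Zeb2 had a log2 fold change of -0.02. The 6 exhaustion markers summed to 481 to 673 CPM in Crep hashtags and 690 to 809 CPM in Cren hashtags. Ctla4 at 333 CPM and Tigit at 200 CPM were the largest. Lag3 went the other way (log2 0.53), and Pdcd1, Tox and Havcr2 were too low to be tested. Each sum thus rests mainly on few genes. The part of either list in the calls was not tested.

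The promoters of the called genes were read for the letters TTCNNNGAA, the core shared by BCL6 and STAT sites, in the 250 bases before each RefSeq start (GRCm38.p6). Of the 14 genes, 12 had a window, 19 windows in all, and 3 windows (15.8%) of Fgl2, Nkg7 and Tgif1 held the letters, against 2306 of 32851 windows of all genes (7.02%). The pattern reads the same on both strands. The 19 windows are not independent, because those of Rexo5 and of Glrx overlap and Tgif1 has 5. With 3 matching windows the 2 shares cannot be told apart. A match of letters is a description and not a site of binding. The 3 windows are shown 5′ to 3′ on the strand of the gene with the matching letters in capitals, because they belong to genes that rose (Fgl2 at chr5:21372423-21372672, + strand, and Nkg7 at chr7:43436888-43437137, + strand) and fell (Tgif1, 1 of its 5 windows, chr17:70846778-70847027, - strand).
Fgl2: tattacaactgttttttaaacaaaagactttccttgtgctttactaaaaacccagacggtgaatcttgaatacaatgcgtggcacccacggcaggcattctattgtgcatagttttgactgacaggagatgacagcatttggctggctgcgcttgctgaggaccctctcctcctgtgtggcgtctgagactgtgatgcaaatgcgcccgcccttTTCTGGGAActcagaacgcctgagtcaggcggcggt
Nkg7: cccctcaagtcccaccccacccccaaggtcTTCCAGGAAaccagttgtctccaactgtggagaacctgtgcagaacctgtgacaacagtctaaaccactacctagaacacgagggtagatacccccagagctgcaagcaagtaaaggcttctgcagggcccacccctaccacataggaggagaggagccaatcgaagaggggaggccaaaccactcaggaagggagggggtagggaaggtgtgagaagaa
Tgif1: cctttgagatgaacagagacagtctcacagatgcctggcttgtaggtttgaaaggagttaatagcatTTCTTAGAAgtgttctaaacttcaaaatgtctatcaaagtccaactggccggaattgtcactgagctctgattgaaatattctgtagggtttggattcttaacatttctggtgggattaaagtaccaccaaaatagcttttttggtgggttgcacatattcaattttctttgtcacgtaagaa

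The matching letters begin 36 bases before the start of Fgl2, 220 before that of Nkg7 and 183 before that start of Tgif1. Among the 20 genes that led the cluster, 13 had a window and none of their 14 windows held TTCNNNGAA. All 14 windows held AGAC or GTCT, the SMAD core on either strand, as did 82.9% of all windows, and 3 (21.4%) held TGTGGT or ACCACA, the RUNX core on either strand, against 14.05% of all windows.

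The effects inside the cluster were set beside those in the other cells. In the other cells, 44 of 9425 genes (0.467%) passed, 23 (0.244%) higher and 21 (0.223%) lower in Crep. All 14 genes called in the cluster had the same sign there, and 4 of them (Rexo5, Fgl2, Ndufa4 and Tgif1) were also called. Of the 44, 32 were tested in the cluster, all with the same sign, and 4 were called there. Both comparisons use the same hashtags and so are not independent. The other cells also differed in make-up between the groups. Coarse cluster 4 held 8.29 to 63.1% of a Crep hashtag's cells and 0.0905 to 0.996% of a Cren hashtag's cells. What part this mix has in the effects in other cells was not tested. Socs2 had an effect (log2) of 1.97 in the cluster and 1.07 (SE 0.29, adjusted p = 0.233) in other cells, and Ccr2 of 1.91 and 1.12 (SE 0.31, adjusted p = 0.256). The difference of effects itself did not pass for either gene (edgeR adjusted p = 0.917 for Socs2 and 0.824 for Ccr2).

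**Figure D4:**
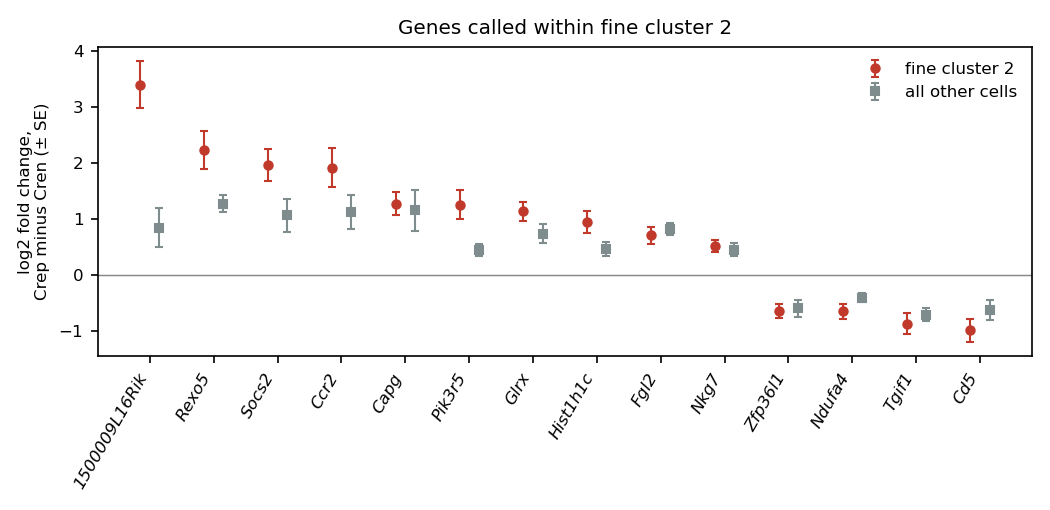
Log2 fold change, Crep minus Cren (± SE), of the 14 called genes in fine cluster 2 (red circles) and in all other cells (grey squares). Every gene has the same sign in both, and the widest gap is that of 1500009L16Rik, 3.39 in the cluster and 0.85 in other cells.

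The effect of genotype group differed between the cluster and other cells for 5 of 9733 genes (0.0514%), 3 (0.0308%) with a higher and 2 (0.0205%) with a lower effect in the cluster, and 472 had an unadjusted p under 0.05. With DESeq2 and the hashtag as a block none of the 5 passed, and with limma-voom and that block Trav3-3 and Trav13n-1 did not. For 1500009L16Rik the effects were 3.39 in the cluster and 0.85 in other cells, a difference of 2.44 (SE 0.46, edgeR adjusted p = 0.00119). Its Crep level was alike in the 2 parts, 46.6 ± 13.6 CPM in the cluster and 44.4 ± 16.4 CPM in other cells, and its Cren level was 5.17 ± 3.54 and 24.3 ± 7.70 CPM. Against fine clusters 0 and 3 alone, the difference was 0.72 and did not pass (adjusted p = 1.00).

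Plac8, a gene of effector T cells and myeloid cells (chromosome 5, 100551589 to 100572253), had 462, 531, 485 and 603 CPM in the Crep hashtags of the cluster, against 514, 396, 507 and 380.4 CPM in the Cren hashtags. The groups overlapped in the cluster (log2 0.18, adjusted p = 0.917), whereas in other cells Plac8 had 459 ± 45.7 CPM in Crep, against 292 ± 54.9 CPM in Cren (log2 0.65, SE 0.13, adjusted p = 0.0472). The difference of effects was -0.53 (SE 0.12, edgeR adjusted p = 0.0215), and -0.21 against fine clusters 0 and 3 alone, where it did not pass (adjusted p = 0.993). It passed in 3 of 8 omissions of a hashtag.

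The other 3 genes were T cell receptor alpha segments. Trav14-1 had 20 UMIs in 7 Crep cells of the cluster, 3 of Crep 1 and 4 of Crep 3, and none in the 778 Cren cells. Trav13n-1 had a UMI in 23 of 138 Crep 1 cells of the cluster, in 2 of 25 Crep 4 cells, and in 3, 2 and 1 cells of Cren 1, Cren 2 and Cren 4. Trav3-3 had a UMI in 2, 7, 0 and 1 cells of the 4 Crep hashtags and in 5, 8, 6 and 9 cells of the 4 Cren hashtags of the cluster, and in 36.2% of the other cells of Crep 4. These counts rest on few cells of single hashtags. Single segments could make up a large part of a hashtag's cells in the cluster: Trbv19 was found in 31 of 65 Crep 3 cells with a beta segment (47.7%), and Trav13-1 in 78 of 263 Cren 2 cells with an alpha segment (29.7%).

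Program lists were then read between the groups inside the cluster, against 2428 positive and 2567 negative genes of 4995 tested (median log2 fold change -0.01). Cytotoxic genes were positive in Crep for 17 of 20 members, with a median of 0.27, and 1 passed, Nkg7. Gzmb, the granzyme B gene, had the largest fold of the list, with 4257, 2254, 2516 and 2072 CPM in Crep, against 849, 813, 945 and 324 CPM in Cren. Every Crep hashtag was at least 2 times the highest Cren hashtag; edgeR did not call it (log2 1.94, SE 0.40, adjusted p = 0.252), whereas DESeq2 (adjusted p = 0.00115) and limma-voom (adjusted p = 0.000529) did. A Gzmb gap was also seen in the other cells, whose make-up differed between the groups. Gaps within single other clusters were not tested. In all other cells Gzmb had 3163 ± 609 CPM in Crep, against 1120 ± 536 CPM in Cren (log2 1.49, SE 0.40). The difference of effects was 0.37 (SE 0.31) and did not pass. Over the 24 cytotoxic genes tested in other cells, the median log2 fold change was 0.45. Within the cluster, Klrd1, the gene of the receptor chain CD94, was at 0.45 (edgeR adjusted p = 0.229) and Gzmk at 0.60 (adjusted p = 0.277).

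Of the 35 resident-memory genes, 19 were positive and 16 negative, with a median of 0.01. None was called, which at 0.28% of all tested genes called says nothing about the list. Itgae had 380.3, 315, 423 and 263 CPM in the Crep hashtags, against 333, 409.8, 299.9 and 260.2 CPM in the Cren hashtags. The groups overlapped throughout (log2 0.11, SE 0.15, edgeR adjusted p = 0.980). Gpr34 had 80.6 ± 23.4 CPM in Crep, against 66.0 ± 17.2 CPM in Cren (log2 0.40, adjusted p = 0.885). Apol7b had 97.1, 10.7, 83.7 and 108 CPM in Crep, against 121, 116, 162 and 157 CPM in Cren. All 4 Crep hashtags lay below every Cren hashtag, Crep 2 far below, and the difference did not pass (log2 -1.05, SE 0.48, adjusted p = 0.874); with no filter on low counts it did (adjusted p = 0.00797), and without Crep 2 the log2 value was -0.52.

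Of the egress and circulation genes, 5 of 9 were positive and none passed. Of the TGF-beta pathway genes, 12 of 15 were negative with a median of -0.13, and Tgif1 was the one called; Tgfbr3 was at -0.57 (edgeR adjusted p = 0.906) and Pmepa1 at 0.29 (adjusted p = 0.893). Of the candidate BCL6-repressed genes, 10 of 14 were positive with a median of 0.29, and Socs2 was called; Ccnd2, the cyclin D2 gene, was at 0.76 (adjusted p = 0.0750) and the retinoid-related receptor gene Rora at -0.54 (adjusted p = 0.108).

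Early-response genes were negative for 12 of 14 members (median -0.14) and none passed. Nr4a1, listed among resident-memory and receptor-signal genes, had 380.3, 293, 203 and 216 CPM in Crep, against 556, 614, 603 and 319 CPM in Cren. The groups overlapped through Crep 1 and Cren 4 (log2 -0.86, SE 0.25, edgeR adjusted p = 0.408). Heat shock genes were negative for 9 of 11 members, with a median of -0.33 and none called; Dnajb1 was at -0.63 (adjusted p = 0.579). Of the stem-like genes, 5 of 10 were positive, and Tcf7, which encodes TCF-1, had 110.2, 107, 172 and 186 CPM in Crep, against 276, 203, 172.4 and 312 CPM in Cren. The groups overlapped through Crep 4 and Cren 3 (log2 -0.88, SE 0.20, adjusted p = 0.0576). Tcf7 passed without Crep 3 (adjusted p = 0.0458), Cren 2 (0.0206) or Cren 3 (0.0137), with receptor segments left out (0.0412) and with no filter on low counts (0.000253). In all other cells Tcf7 was at -1.15 (SE 0.23, edgeR adjusted p = 0.103). The exhaustion list had 4 positive and 6 negative members of 10 and none called, with Entpd1, the CD39 gene, at 1.18 (adjusted p = 0.256) and Tigit at -0.52 (adjusted p = 0.256).

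Of the remaining lists, the 14 genes of T cell receptor signalling had 6 positive and 8 negative members, and Cd5 was called. The interferon list had 7 positive and 6 negative of 13, glycolysis 7 and 6 of 13, and cell cycle 4 and 1 of 5. The type 17 list had 1 and 1 of 2, and the receptors for lipids and purines 3 and 6 of 9. Both apolipoprotein L genes tested were negative. Apart from Cd5, none of these lists had a called gene. At 0.28% of all tested genes called, this says nothing about the lists. The same holds for the egress, early-response, heat shock and exhaustion lists.

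The share of cells with a transcript was compared after thinning to 1500 UMIs per cell, which left out 11 Crep and 45 Cren cells of the cluster. Gzmb was detected in 84.4, 72.1, 79.2 and 87.0% of Crep cells, against 29.1, 32.7, 38.9 and 24.6% of Cren cells. Most cells of the cluster thus carried a Gzmb UMI in every Crep hashtag and a minority in every Cren hashtag. The means were 80.7 ± 6.57% in Crep and 31.3 ± 6.05% in Cren (SD, n = 4 each; exact two-sided permutation p = 0.02857, the smallest that 4 against 4 allows; adjusted over 8 genes p = 0.229), and 89.9 and 40.7% without thinning. No cell class here is known to lack Gzmb, so there is no floor to set the shares against. The lowest share among the 12 fine clusters was 39.4%, in fine cluster 5 with a median of 2941 UMIs. That share pools Crep and Cren cells, so the Cren share of the cluster cannot be set against it. The Cren cells of the cluster held 1636 Gzmb UMIs. What part of these UMIs came from the cells themselves was not tested. Shares in other cells were not compared between the groups. Itgae had a UMI in 37.2 ± 3.14% of Crep cells, against 31.6 ± 4.86% of Cren cells (exact permutation p = 0.143, adjusted p = 0.286), against 0.748% in fine cluster 7. Without thinning these shares were 48.0% in Crep and 49.2% in Cren. Klrd1 was at 42.6 ± 6.40% in Crep and 34.0 ± 2.01% in Cren, and Gzma at 35.9 ± 4.92% in Crep and 26.2 ± 4.298% in Cren. None of the 8 genes passed the adjusted test, which a gene that separated alone could not have passed in this design. All of the 8 genes other than Gzmb had overlapping groups.

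**Figure D5:**
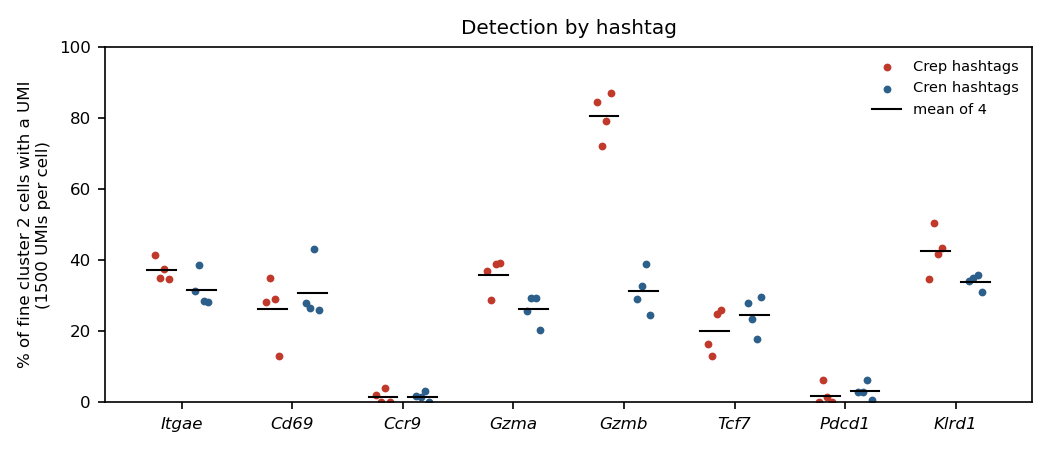
Percent of fine cluster 2 cells with a UMI after thinning to 1500 UMIs per cell, for 8 genes, with Crep hashtags in red at the left and Cren hashtags in blue at the right of each gene and black lines for the mean of 4. Gzmb has the widest gap, 72.1 to 87.0% in Crep and 24.6 to 38.9% in Cren, while Itgae overlaps between the groups.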

How the data were processed

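Single CD8 T cells carried 8 hashtags in 1 pooled gene-expression library. The authors deposited a table of raw counts, in UMIs, for each gene in each cell. The authors' deposited annotation gave the cluster numbers, hashtags, total counts and mitochondrial percent of each cell, and UMAP coordinates as a score without unit, which were not used. Per the submitters' processing notes, Seurat 4.3.0, mm10, Cell Ranger 7.0.0 and bcl2fastq 2.20.0.422 were used. In the deposited cells the lowest number of genes was 500 and the highest mitochondrial share 3%; no further cell was removed and no doublet caller was run.

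Sums of UMI counts over each hashtag's cells were tested as Crep minus Cren with edgeR 4.0.16 (quasi-likelihood test, TMM, filterByExpr, robust; Benjamini-Hochberg adjustment, threshold 0.05), within the cluster, in all other cells, and for the difference with the hashtag as a block. Group levels are TMM-scaled CPM; levels against other cells or clusters use plain totals. Alternatives used DESeq2 1.42.0 and limma 3.58.1 (R 4.3.3). The rest was done with pandas 2.3.3, scipy 1.17.1, numpy 2.4.6 and matplotlib 3.10.9 under Python 3.11.15. Scripts were tested on simulated data. Hist1h1c and other genes without a match in RefSeq have no coordinates. Members and lists were chosen with earlier results of these data known. Named genes were the markers and Bcl6, the 20 highest and 12 lowest ratios, called genes whose mean log2 CPM reached 5, up to 10 interaction genes, and per list up to 4 tested members by p and 4 by ratio; other list members named were chosen after their values were seen. Some items are not reported here.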

Additional observations from a re-analysis of the deposited data

Results flagged for a closer look

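Within a group of 4 hashtags, a value was singled out where its gap to the next made up most of the group's range, which chance does in about 1 of 20 groups; 8 of 84 groups were singled out. Crep 4 had 63.1% of its cells in coarse cluster 4. Crep 3 had the highest median genes per cell in the cluster, 1457. Cren 3 had the highest share of cluster cells with a Cd69 UMI, 43.2%. Cren 1 had the lowest Glrx level of its group, 119 CPM, Crep 3 the lowest Rexo5 level, 48.5 CPM, and Crep 4 the lowest Nkg7 level, 2381 CPM. Trav14-1 was highest in Crep 3 at 65.7 CPM, and Trav13n-1 was highest among Cren hashtags in Cren 1 at 16.6 CPM.

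The effect of the group differed between the cluster and all other cells for 5 genes by the edgeR interaction test. The log2 difference of effects was 2.44 for 1500009L16Rik, -0.53 for Plac8, -2.40 for Trav3-3 and 2.70 for Trav13n-1. For Trav14-1 the fitted difference was 9.01; with 0 UMIs in the Cren cells of the cluster this value depends on the fit and is no bound. Without Crep 3 the adjusted p of Trav14-1 was 0.269. Trav3-3 passed in 4 and Trav13n-1 in 2 of 8 omissions of a hashtag. The causes were not tested.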

How the results depend on the processing

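The 14 genes called within the cluster were 12 with DESeq2, 14 with limma-voom, 55 of 12516 with no filter on low counts, and 4 with cells thinned to 1500 UMIs, where 2960 genes were tested; leaving out 1 hashtag gave 6 to 24, with 6 without Crep 2, 9 without Crep 3, 21 without Cren 3 and 24 without Cren 2. In all other cells the 44 calls were 113 with DESeq2 and 24 with limma-voom, and 24 (without Cren 1) to 78 (without Cren 3) when 1 hashtag was left out, with 27 without Cren 4. The 5 genes whose effect differed were 9 with limma-voom, 0 with DESeq2 (188 at an unadjusted p under 0.05), 16 against fine clusters 0 and 3 alone, 7 with other size factors (RLE), and 2 (without Crep 3) to 14 (without Crep 1) when 1 hashtag was left out, with 3 without Crep 4 or Cren 4, 12 without Cren 1 and 13 without Cren 3. The share of cells, lower by 8.86 percentage points in Crep, gave a Crep minus Cren difference of -18.0 for coarse cluster 1 in place of the cluster. The Itgae share of cells changed sign without thinning (-1.26 points). Without 1 hashtag the uncalled Crep minus Cren differences ran from -167 to 7.75 median UMIs, from -36.3 to 34.0 median genes, from -1.29 to 0.32 points of ribosomal share and from -0.86 to 0.53 points for Ccr9. Of 398 alternatives for single genes, 312 kept their side of the threshold and none changed sign, for the genes and settings run. The counts of genes at least 2-fold from other cells stayed within 1.5 times their main values, at 21 to 36 higher and 47 to 57 lower. No paired analysis was possible because the hashtag numbers pair no sources in the labels. Depth limits Crep 4 most, with 68561 UMIs in the cluster. The causes of these changes were not tested.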
